A study of Mus musculus with 13 samples.

Results

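Ifitm1, Ifitm2 and Ifitm3, the interferon-induced transmembrane genes, were followed in donor CD4+ T cells responding against a mouse host, a setting of acute graft-versus-host disease. Each was measured by 1 probe set naming only that symbol, and together they make up 3 of 22180 genes measured. The family was chosen by its symbols with earlier results of these data known: the log2 rise of Ifitm3 with Cl-BBQ, among the largest, led to it. Ifitm3 is therefore described without a test, and the adjusted p of the fit over all genes is given for Ifitm1 and Ifitm2. Donor splenocytes from C57Bl/6 mice carried CFSE, a dye diluted at each division, and hosts were B6D2F1 mice. Mice were 10 to 12 weeks old when bought. One group of hosts received TCDD intraperitoneally at 15 µg/kg on day 0 (4 arrays), another received Cl-BBQ at 10 mg/kg on each day from day 0 through day 2 (5 arrays), and controls received vehicle over those days (4 arrays). Both compounds bind the aryl hydrocarbon receptor (AhR), TCDD being dioxin, but dose and schedule differ between them. All groups, controls included, had received donor cells. On day 3 (72 hr), donor CD4+ cells past at least 2 divisions were collected by bead enrichment and flow sorting of spleen and lymph node. The labels call the samples biological replicates without saying how many mice each array holds, so p-values measure the spread between these samples.

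The IFITM proteins are small membrane proteins that restrict the entry of many enveloped viruses by acting on the membranes with which virus particles fuse. Ifitm3 encodes a mainly endosomal member, Ifitm2 a closely related endosomal member and Ifitm1 a member found more at the cell surface. Interferons induce these genes through the interferon-stimulated response element (ISRE) of promoters, and some lymphocytes keep expressing them without ongoing interferon signalling. AhR acts with its partner ARNT on a different element, whose core reads GCGTG.

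The 250 bases before the annotated start of each gene are shown because Ifitm2 and Ifitm3 rose together; they come from RefSeq, build GRCm38.p6, and all 3 genes matched 1 window each. They lie at chr7:140967826-140968075 on the plus strand for Ifitm1, chr7:140955962-140956211 on the minus strand for Ifitm2 and chr7:141010745-141010994 on the minus strand for Ifitm3. Capitals mark matches to the ISRE core (GAAA, any 2 bases, GAAA), the AhR core GCGTG or the palindrome TTCNNNGAA, on either strand. A stretch of 30 bases just after the start of Ifitm3, at chr7:141010714-141010743, is added because its other matches lie there.
Ifitm1: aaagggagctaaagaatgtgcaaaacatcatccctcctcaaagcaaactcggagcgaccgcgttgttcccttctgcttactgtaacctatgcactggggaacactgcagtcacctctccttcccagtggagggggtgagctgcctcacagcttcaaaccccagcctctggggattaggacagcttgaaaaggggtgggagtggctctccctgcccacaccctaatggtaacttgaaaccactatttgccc
Ifitm2: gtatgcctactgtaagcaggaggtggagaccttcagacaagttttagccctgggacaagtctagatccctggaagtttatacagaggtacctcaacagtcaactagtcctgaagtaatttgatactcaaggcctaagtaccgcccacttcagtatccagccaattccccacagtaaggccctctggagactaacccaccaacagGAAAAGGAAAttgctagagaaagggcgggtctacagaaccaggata
Ifitm3: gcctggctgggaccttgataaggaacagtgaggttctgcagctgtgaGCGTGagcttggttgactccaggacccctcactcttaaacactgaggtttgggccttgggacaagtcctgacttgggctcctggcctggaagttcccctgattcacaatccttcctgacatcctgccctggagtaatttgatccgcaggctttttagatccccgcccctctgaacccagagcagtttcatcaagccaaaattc
Ifitm3, after the start: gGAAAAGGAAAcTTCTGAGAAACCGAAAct

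Within the windows of 300 bases (250 before and 50 after the start), Ifitm2 held 1 ISRE core match, from 46 to 37 bases before its start. Ifitm3 held 2, from base 3 to base 12 and from base 20 to base 29 after its start, and the matched letters GAAAAGGAAA of the first were those of Ifitm2. Ifitm3 also held a match to the palindrome from base 14 to base 22, which overlaps its second ISRE match, and 1 AhR core match from 203 to 199 bases before its start. No match to these motifs, or to the longer AhR motif TNGCGTG, was found in the window of Ifitm1, and the longer motif was found in none of the 3 windows. Of all 32851 mouse promoter windows of this length, 3.44% held the ISRE core, 8.3% the palindrome, 32.4% the AhR core and 5.07% the longer AhR motif. The AhR motifs were more frequent among the genes tested below. Of 9993 with a window, 5286 held the AhR core, 912 the longer motif, 824 the palindrome and 360 the ISRE core. These are matches of letters, not measured binding.

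The values below are RMA log2 expression per probe set, for which levels of different probe sets cannot be compared. A floor of 4.31, the median of all values, was used, and 12710 genes above it on at least 4 arrays were tested. All 3 genes passed, Ifitm2 and Ifitm3 with all 13 arrays above the floor. Ifitm1 passed through the treated arrays: it was above the floor on 0 vehicle, 3 TCDD and 5 Cl-BBQ arrays, so that its place among the tested genes depended on the groups where it was high.

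Ifitm3 was at 6.47, 6.85, 6.76 and 6.76 on vehicle arrays 1 to 4. It was at 9.45, 8.83, 9.56 and 9.31 on the TCDD arrays and at 9.35, 10.12, 10.25, 9.63 and 9.96 on the Cl-BBQ arrays. Every array of either ligand was above every vehicle array, and the lowest treated array exceeded the highest vehicle array by 1.98 on the log2 scale. The means were 6.71 ± 0.17 (SD, n = 4) with vehicle, 9.29 ± 0.32 (SD, n = 4) with TCDD and 9.86 ± 0.37 (SD, n = 5) with Cl-BBQ. Ifitm3 was thus 5.99-fold higher with TCDD (log2 difference 2.58 ± 0.19 SE) and 8.90-fold higher with Cl-BBQ (3.15 ± 0.18 SE). In bulk samples, more cells of a type and more RNA per cell cannot be told apart.

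Ifitm2 was at 6.36, 5.50, 6.06 and 4.79 on vehicle arrays 1 to 4, the widest vehicle range of the 3 genes. It was at 8.06, 7.97, 8.32 and 7.97 on the TCDD arrays and at 7.42, 8.56, 8.53, 7.90 and 8.10 on the Cl-BBQ arrays. All treated arrays again lay above all vehicle arrays, by at least 1.06, and vehicle replicate 4 was the lowest of all. Ifitm2 rose from 5.68 ± 0.69 (SD, n = 4) to 8.08 ± 0.17 (SD, n = 4) under TCDD, or 5.28-fold (log2 2.40 ± 0.30 SE, 95% interval 1.76 to 3.04; limma, adjusted p = 1.4e-04). With Cl-BBQ it rose to 8.10 ± 0.47 (SD, n = 5), a 5.37-fold change (log2 2.42 ± 0.28 SE, 95% interval 1.82 to 3.03; limma, adjusted p = 3.5e-05). P-values were adjusted over all 12710 genes.

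Ifitm1 was at 4.16, 3.84, 3.79 and 4.11 on vehicle arrays 1 to 4, all below the floor, where differences can be understated on arrays. It was at 4.24, 4.52, 4.70 and 4.57 on the TCDD arrays and at 4.67, 4.76, 5.44, 4.89 and 5.11 on the Cl-BBQ arrays. The groups did not overlap with vehicle, but TCDD replicate 1 exceeded the highest vehicle array by 0.08 only. Ifitm1 was called with Cl-BBQ, at 4.97 ± 0.31 (SD, n = 5) against 3.97 ± 0.19 (SD, n = 4), a 2.00-fold difference (log2 1.00 ± 0.15 SE; limma, adjusted p = 3.8e-04). Without any filter on low values, where its inclusion did not depend on the groups, the adjusted p was 7.1e-04. With TCDD it was at 4.51 ± 0.20 (SD, n = 4), a difference of 0.53 ± 0.16 SE that did not pass (limma, adjusted p = 0.065). It passed without TCDD replicate 1 (adjusted p = 0.048), without Cl-BBQ replicates 1 or 3 (adjusted p of 0.047 and 0.027) and when only vehicle and TCDD arrays were fitted (adjusted p = 0.034). Elsewhere it did not pass, with an adjusted p of 0.12 without a filter, 0.11 with a replicate block and up to 0.18 without TCDD replicate 3.

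**Figure D1:**
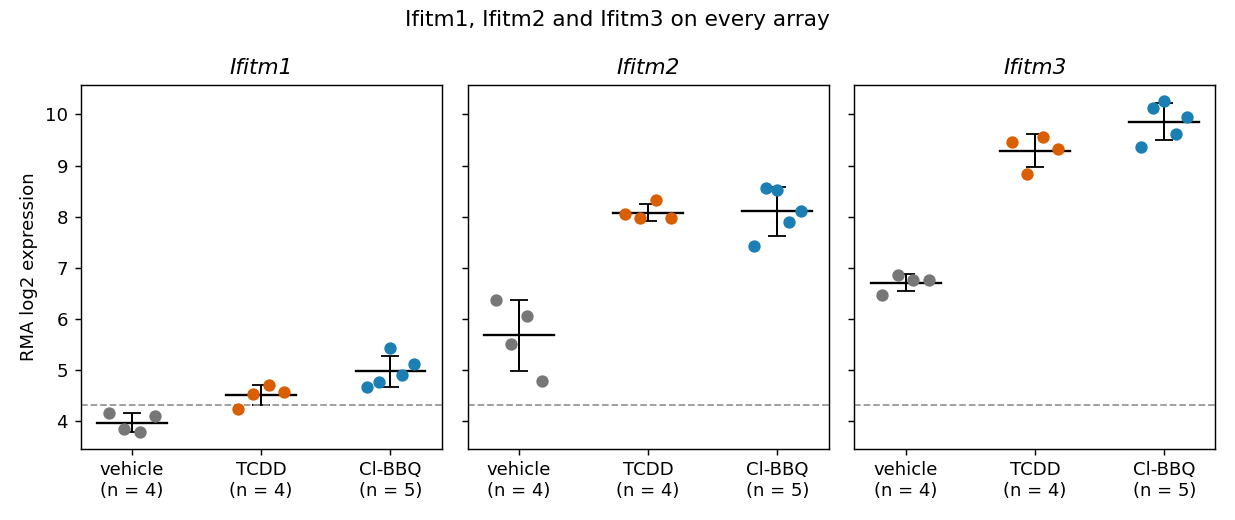
RMA log2 expression (vertical axis) of Ifitm1, Ifitm2 and Ifitm3 on 4 vehicle, 4 TCDD and 5 Cl-BBQ arrays; points are arrays, horizontal bars means, error bars SD, and the dashed line the floor of 4.31. For each gene all treated arrays lie above all vehicle arrays, and the vehicle arrays of Ifitm1 lie below the floor.

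Of all tested genes, 3.21% were called higher and 3.50% lower with TCDD (6.71% in all), and 5.31% higher and 6.03% lower with Cl-BBQ (11.3% in all). The shares called higher are the background for Ifitm2, called with both ligands. Ifitm1, called with Cl-BBQ alone, entered the tested genes through its treated arrays, so its call is not set against these shares. Treated arrays lay wholly above vehicle arrays for 6.31% of genes with TCDD and for 6.08% with Cl-BBQ, and for Ifitm2 with either ligand. They did so too for Ifitm3, chosen for its rise, and Ifitm1, which was tested through its treated arrays. For Ifitm1 and Ifitm3 this is a description, not to be set against those shares. Both comparisons share the vehicle arrays.

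The difference Ifitm2 minus Ifitm1, taken on each array, was 1.71 ± 0.73 (SD, n = 4) with vehicle, 3.57 ± 0.19 (SD, n = 4) under TCDD and 3.13 ± 0.40 (SD, n = 5) under Cl-BBQ. Because all vehicle values of Ifitm1 lay below the floor, its change may be understated by an unknown amount. These values therefore do not show that the 2 genes responded to a different extent.

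Cl-BBQ was set against TCDD directly, as 2 regimens that differ in dose and schedule. Ifitm2 differed by 0.02 ± 0.28 SE, with a 95% interval from -0.58 to 0.63 (limma, adjusted p = 1.00), an interval that covers changes of up to 1.55-fold. Ifitm1 was higher with Cl-BBQ on 4 of 5 arrays than on any TCDD array, but the difference of 0.47 ± 0.15 SE did not pass (95% interval 0.14 to 0.79; limma, adjusted p = 0.57). Ifitm3 differed by 0.57 ± 0.18 SE, also with 4 of 5 Cl-BBQ arrays above all TCDD arrays, and Cl-BBQ replicate 1 was below the highest TCDD array. In this contrast 0.0236% of tested genes, or 3, were called at all.

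**Figure D2:**
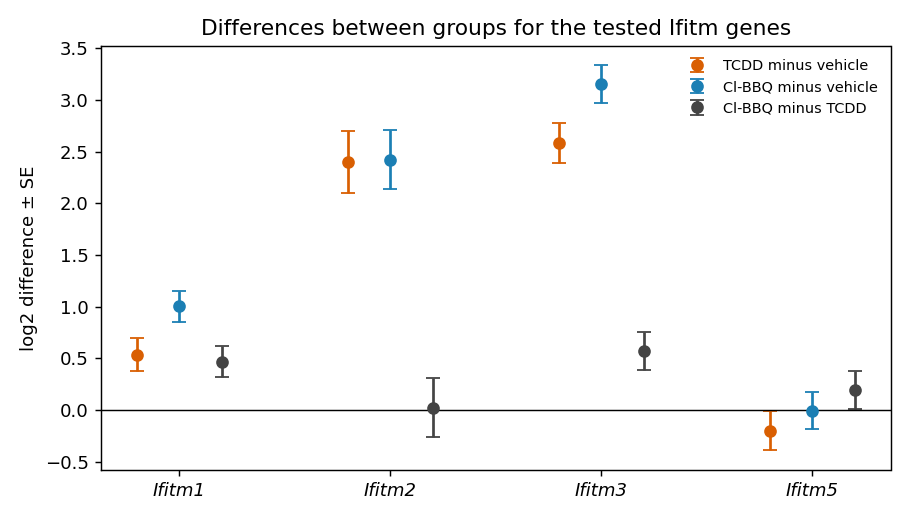
Log2 differences (vertical axis) with their moderated SE for the tested Ifitm genes: each ligand against vehicle, and Cl-BBQ against TCDD. Ifitm2 sits near 2.4 with either ligand, Ifitm3 at 2.58 and 3.15, Ifitm1 at 0.53 and 1.00, and Ifitm5 near 0.

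Over the 13 arrays the log2 values of Ifitm2 and Ifitm3 had a Pearson correlation of 0.93, those of Ifitm1 and Ifitm3 of 0.86 and those of Ifitm1 and Ifitm2 of 0.78. These values mostly restate the group differences; for deviations from the group means they were 0.38, 0.34 and 0.27. The genes of this family are close in sequence, and the probe sequences were not used here, so whether their probe sets share signal was not tested.

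**Figure D3:**
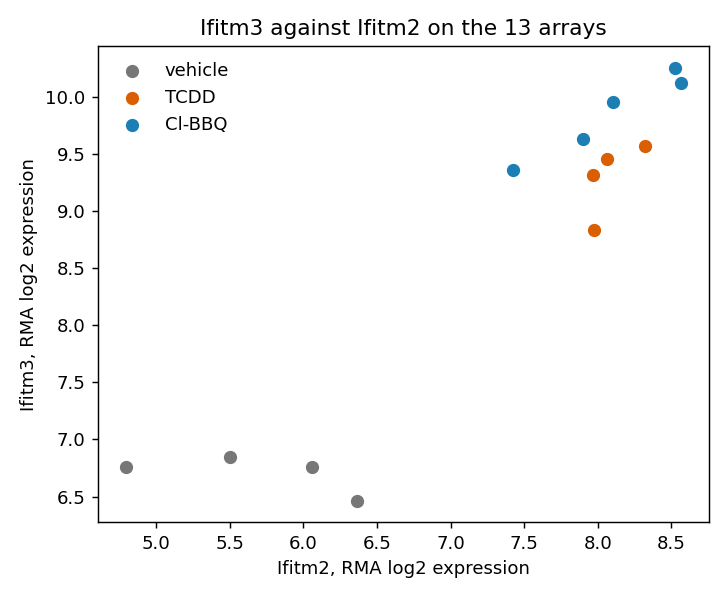
RMA log2 expression of Ifitm3 (vertical axis) against Ifitm2 (horizontal axis), 1 point per array, coloured by group. The 4 vehicle arrays lie apart at low values of both genes, while TCDD and Cl-BBQ arrays overlap along the Ifitm2 axis.

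No other family member was called. Ifitm5, which encodes a bone-forming cell protein, was at 4.85 ± 0.27 (SD, n = 4) on vehicle arrays, 4.66 ± 0.21 (SD, n = 4) on TCDD arrays and 4.85 ± 0.38 (SD, n = 5) on Cl-BBQ arrays, and did not pass with either ligand (limma, adjusted p of 0.68 and 0.99). Ifitm6 (means of 2.76, 2.82 and 2.94 with vehicle, TCDD and Cl-BBQ) and Ifitm10 (means of 3.47, 3.51 and 3.52) were below the floor on all 13 arrays. Ifitm7 had no probe set naming it alone and was not analysed here.

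In the reference gene table the cluster runs Ifitm5, Ifitm2, Ifitm1, Ifitm3, Ifitm6 on chromosome 7. Ifitm5 and Ifitm6, at its ends, were not called or lay below the floor. Beyond Ifitm6 the next protein-coding gene is B4galnt4, which encodes a glycosyltransferase of N-acetylgalactosamine. B4galnt4 was at 4.75, 4.45, 4.50 and 5.49 with vehicle, at 7.21, 6.75, 6.83 and 6.58 with TCDD, and at 7.00, 7.20, 7.55, 7.19 and 7.24 with Cl-BBQ. No array of the treated groups overlapped with vehicle. It rose 4.12-fold with TCDD (log2 2.04 ± 0.20 SE; limma, adjusted p = 2.1e-05) and 5.42-fold with Cl-BBQ (2.44 ± 0.19 SE; adjusted p = 8.8e-07).

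Of the 10 protein-coding genes on each side of the cluster, predicted genes left out, 19 of 20 were measured and 13 tested. With TCDD 3 rose and 0 fell, and with Cl-BBQ 5 rose and 0 fell, against 3.21% and 5.31% called higher among all genes. The median log2 difference of the 13 was 0.23 with TCDD and 0.20 with Cl-BBQ, against 0.00 and -0.01 over all genes tested. Sigirr, a damping receptor of the interleukin 1 receptor family that lies 3 genes beyond Ifitm6, rose by 0.53 ± 0.12 SE and 0.58 ± 0.11 SE (limma, adjusted p of 0.012 and 0.0024). Ric8a, a chaperone of G protein alpha subunits, rose by 0.44 ± 0.12 SE and 0.56 ± 0.12 SE (adjusted p of 0.048 and 0.0051). The first call was lost without any 1 of 9 arrays (farthest at 0.14, TCDD replicate 1 left out). It was also lost without a filter, with median centring and with a replicate block (up to 0.094). Bet1l and Pkp3 were called with Cl-BBQ alone, at 0.34 and 0.30. These calls were lost without vehicle replicate 3 (adjusted p of 0.064 and 0.084), that of Pkp3 also without any 1 of 6 further arrays. Without a filter, or with an intensity trend and robust variance, the call of Pkp3 was also lost. It was lost too with only the groups compared and with a replicate block (adjusted p up to 0.091). With TCDD, Bet1l and Pkp3 differed by 0.28 and 0.29 without passing (limma, adjusted p of 0.094 and 0.064). Pkp3 passed with TCDD under a stricter floor and after another quantile normalization (down to 0.031). Pkp3 was named after its values were seen.

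**Figure D4:**
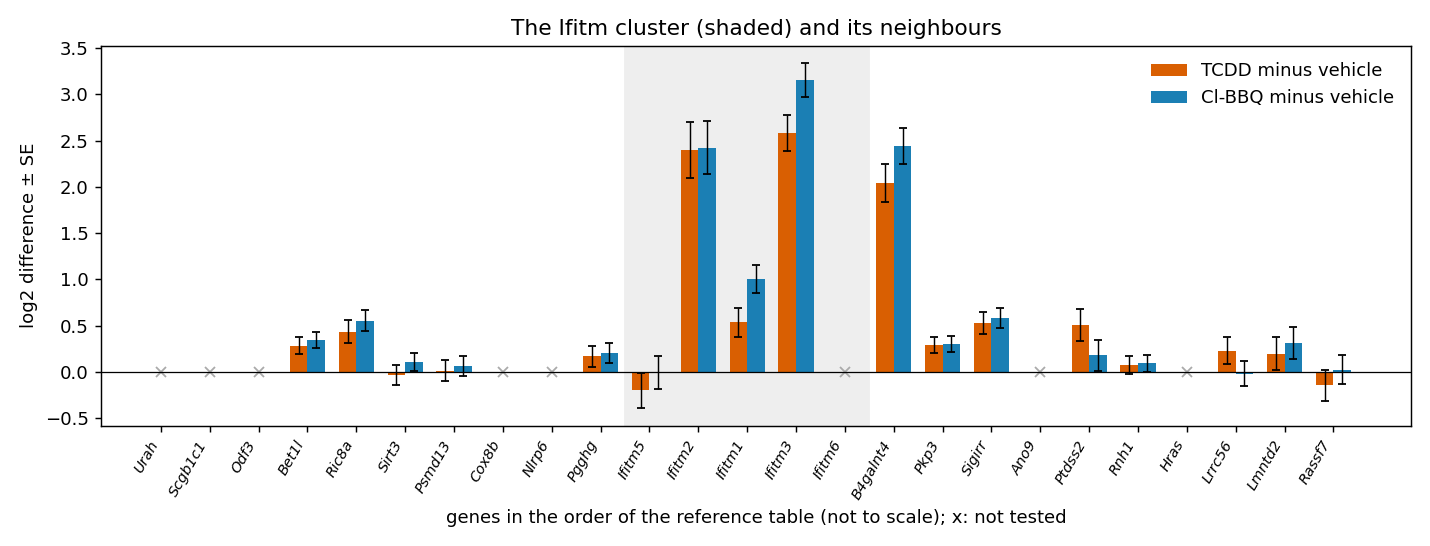
Log2 difference from vehicle with its moderated SE (vertical axis) for the 5 genes of the Ifitm cluster, shaded, and 10 genes on each side in the order of the reference table, not to scale; crosses mark genes not tested. The tall bars are those of Ifitm2, Ifitm3 and B4galnt4, while Ifitm1 stands at 0.53 and 1.00 and the remaining neighbours lie between -0.14 and 0.58.

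Among other genes induced by type I interferon, 1 was called. Of 45 listed genes 39 were measured and 37 tested, and 1 of the 37 rose and 0 fell with either ligand, where 3.21% of all tested genes were called higher with TCDD and 5.31% with Cl-BBQ. Their median log2 difference was 0.03 with TCDD and 0.04 with Cl-BBQ, against 0.00 and -0.01 over all genes, and the range was -0.41 to 0.90 and -0.61 to 1.17. No tested gene of the list therefore changed as much as Ifitm2. Oas2, a sensor of double-stranded RNA, was at 7.08 ± 0.33 (SD, n = 4) with vehicle, 7.99 ± 0.57 (SD, n = 4) with TCDD and 8.26 ± 0.31 (SD, n = 5) with Cl-BBQ (limma, adjusted p of 0.046 and 0.0042). Its call with TCDD was lost without any 1 of 10 arrays (farthest at an adjusted p of 0.14, TCDD replicate 3 left out). Oas2 also lost it without a filter, with median centring or with only the groups compared (up to 0.080). Its paralog Oas3 (0.41 and 0.38), the nucleic acid sensor gene Zbp1 (0.16 and 0.27) and Pml, which organises nuclear bodies (-0.08 and -0.29), did not pass with either ligand. Under an intensity trend and robust variance, Zbp1 and Pml did pass with Cl-BBQ (limma, adjusted p of 0.045 and 0.047).

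Of 22 tested GTPase and antigen presentation genes best known as targets of interferon gamma, 0 rose and 1 fell with TCDD, and 2 rose and 2 fell with Cl-BBQ, with medians of -0.10 and 0.05. The shares over all tested genes were 3.21% higher and 3.50% lower with TCDD, and 5.31% and 6.03% with Cl-BBQ. Iigp1, a GTPase acting on pathogen vacuoles, fell by 1.01 with TCDD and by 0.87 with Cl-BBQ (limma, adjusted p of 0.018 and 0.021), calls lost without vehicle replicate 4 (adjusted p of 0.054 and 0.065), the second also without any 1 of 3 further arrays. The immunoproteasome subunit gene Psmb8 fell by 0.28 with Cl-BBQ (limma, adjusted p = 0.015, and 0.090 with a replicate block). The guanylate-binding protein genes Gbp7 (0.80, adjusted p = 0.0048) and Gbp3 (0.49, adjusted p = 0.023) rose with Cl-BBQ. The call of Gbp3 was lost without any 1 of 3 arrays (farthest at 0.085, vehicle replicate 1 left out).

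Of 32 type I list genes with a promoter window, 15 held the ISRE core, and of 19 interferon gamma list genes 11 held it. Of all 360 tested genes with the ISRE core in a window, 11 (3.06%) rose with TCDD, against 321 (3.21%) of 9993 tested genes with a window. With Cl-BBQ 23 (6.39%) rose against 527 (5.27%). Of 5286 tested genes with the AhR core, 173 (3.27%) and 279 (5.28%) rose. Of 912 with the longer AhR motif, 42 (4.61%) rose with TCDD and 57 (6.25%) with Cl-BBQ. Of 824 with the palindrome TTCNNNGAA, 38 (4.61%) and 53 (6.43%) rose. These shares describe the letters in the windows and were not tested.

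Among interferon ligands, Ifng, the gene of interferon gamma, was at 6.13 ± 0.41 (SD, n = 4) with vehicle, 6.49 ± 0.16 (SD, n = 4) with TCDD and 6.74 ± 0.34 (SD, n = 5) with Cl-BBQ. It did not pass with either ligand (limma, adjusted p of 0.40 and 0.059), except with Cl-BBQ without any 1 of 2 arrays (adjusted p down to 0.0068, vehicle replicate 1 left out), under a stricter floor or with an intensity trend and robust variance (down to 0.043). None of 6 tested ligand genes was called by limma with either ligand, with 0 and 1 at an unadjusted p under 0.05. Ifnb1, the gene of interferon beta, lay at means of 2.09, 2.08 and 2.03, below the floor.

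Of 15 tested genes of interferon receptors and signalling, 2 rose and 0 fell with TCDD, and 2 rose and 1 fell with Cl-BBQ, with medians of 0.15 and 0.16, beside the same shares over all genes (3.21% and 3.50%, then 5.31% and 6.03%). Ifngr1, the ligand-binding chain of the interferon gamma receptor, rose from 8.09 ± 0.16 (SD, n = 4) to 8.97 ± 0.03 (SD, n = 4) with TCDD and 9.20 ± 0.11 (SD, n = 5) with Cl-BBQ (limma, adjusted p of 4.4e-05 and 1.3e-06). All treated arrays lay above all vehicle arrays. Socs3, a feedback inhibitor of cytokine receptors, rose by 0.83 ± 0.19 SE and 1.35 ± 0.18 SE (limma, adjusted p of 0.015 and 1.2e-04). Ifnar2, a chain of the type I interferon receptor, fell by 0.45 with Cl-BBQ (limma, adjusted p = 0.0089). With TCDD it fell by 0.36 without passing (limma, adjusted p = 0.060). That fall passed without any 1 of 2 arrays, and under a stricter floor, median centring or an intensity trend and robust variance (down to 0.022). The other chain gene, Ifnar1, differed by 0.17 and 0.22 without passing, except with Cl-BBQ under an intensity trend and robust variance (0.038).

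Of 13 tested genes whose products modify or bind IFITM proteins, 0 rose and 1 fell with TCDD, and 1 rose and 1 fell with Cl-BBQ, counts of 1 that lie near the all-gene shares (3.21% and 3.50% with TCDD, 5.31% and 6.03% with Cl-BBQ). Cd81, a tetraspanin found in complexes with IFITM1, was at 7.80, 7.81, 7.64 and 7.36 on the vehicle arrays. It was between 6.71 and 7.21 on TCDD arrays and between 6.32 and 6.88 on Cl-BBQ arrays, all below the vehicle arrays, as for 7.28% of tested genes with TCDD and 6.80% with Cl-BBQ. It fell by 0.76 with TCDD and by 0.98 with Cl-BBQ (limma, adjusted p of 0.0063 and 3.2e-04), opposite in direction to the Ifitm genes. Zmpste24, a protease described as a cofactor of IFITM proteins, was called higher with Cl-BBQ (0.46, adjusted p = 0.016). That call was lost without vehicle replicate 3 (adjusted p = 0.056) and with a replicate block (0.0504). Of 9 tested genes of other antiviral restriction factors, none was called by limma with either ligand, with 2 at an unadjusted p under 0.05 with each. Shfl, an inhibitor of viral translation, came nearest (0.49 and 0.45; limma, adjusted p of 0.066 and 0.055). It passed without any 1 of 2 arrays with TCDD (0.011 without TCDD replicate 2) and any 1 of 3 with Cl-BBQ (0.019 without Cl-BBQ replicate 2). Shfl also passed with each ligand after another quantile normalization, and with Cl-BBQ under a stricter floor or with only the groups compared.

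**Figure D5:**
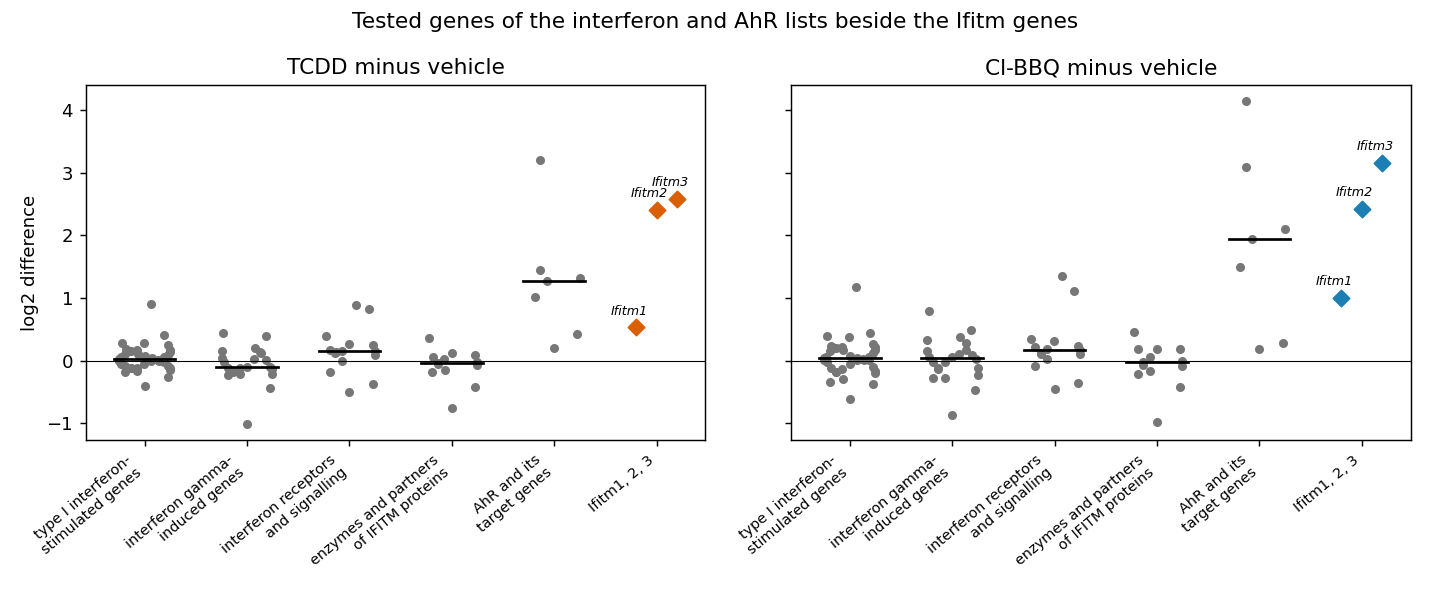
Log2 difference from vehicle (vertical axis) of each tested gene in 5 lists, grey points with the median as a bar, beside Ifitm1, Ifitm2 and Ifitm3 as diamonds; TCDD left, Cl-BBQ right. Ifitm2, and Ifitm3, which was chosen for its rise, lie above every tested interferon-stimulated gene shown. Ifitm1 lies below Oas2 in each panel. What sets the Ifitm genes apart was not tested.

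AhR and its targets gave the comparison on the receptor's side, where 5 of 7 tested list genes were called higher and 0 lower with either ligand, against 3.21% and 5.31% called higher among all genes. Cyp1a1, Cyp1b1 and Ahrr had vehicle means below the floor (3.90, 3.68 and 3.80) and entered the tested genes through arrays where they were high, so these counts are a description. Cyp1b1, a cytochrome P450 gene, was above the floor on 0 vehicle arrays and had means of 6.87 with TCDD and 7.82 with Cl-BBQ. Cyp1a1, another, was above it on 1 vehicle array and had means of 5.35 and 6.98. Tiparp, a repressor of AhR with all group means above the floor, rose by 1.33 ± 0.14 SE with TCDD and 1.94 ± 0.13 SE with Cl-BBQ. Ahr itself did not pass (0.42 and 0.28; limma, adjusted p of 0.27 and 0.41), except with TCDD without TCDD replicate 4 (adjusted p = 0.041).

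The genes whose pattern was most like that of Ifitm3, by Pearson correlation over the 13 arrays, were Cd7, Plac8, Gzmb, Sytl2, Gzma, Ccr2, Cd96 and Gpr55, with r between 0.98 and 0.99. Predicted genes and genes with clone names were left out of the rankings given here. The arrays share their groups, so r is a description. Cd7, a surface receptor of T and natural killer cells, had r = 0.99, and its deviations from the group means correlated with those of Ifitm3 at 0.83. It was at 7.08 ± 0.18 (SD, n = 4) with vehicle, 9.12 ± 0.13 (SD, n = 4) with TCDD and 9.73 ± 0.38 (SD, n = 5) with Cl-BBQ. Gzma and Gzmb encode granzymes, Sytl2 a protein of granule traffic, Ccr2 a chemokine receptor and Cd96 a receptor of T and natural killer cells. By r with Ifitm3 over the 13 arrays, Ifitm2 stood at place 121 and Ifitm1 at place 286 among the tested genes that were ranked. Most like Ifitm2 were Arrb2, Dnajc15, Chsy1, Emp1 and Plac8 (r of 0.96 to 0.97), and most like Ifitm1 were Tmc8, Sgms1, Tesc, Gngt2 and Il18r1 (r of 0.92 to 0.95).

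Macrophages, other myeloid cells and endothelium can express Ifitm genes at high levels, so markers of other cells were followed. T cell markers were high: Cd4 was at 10.52, 10.58 and 10.58 with vehicle, TCDD and Cl-BBQ, and none of 7 tested T cell markers was called by limma, with 0 and 1 at an unadjusted p under 0.05. Their log2 differences were 0.01 to 0.17 with TCDD and 0.06 to 0.22 with Cl-BBQ. Under an intensity trend and robust variance, Cd3d passed with both ligands (limma, adjusted p of 0.045 and 0.0039) and Cd3g with Cl-BBQ (0.046). The mean of the 7 lay between 10.927 and 11.217 with vehicle, 11.221 and 11.263 with TCDD, and 11.212 and 11.281 with Cl-BBQ. TCDD arrays thus lay slightly above vehicle arrays. The mean log2 level over 11 measured macrophage and monocyte markers lay between 4.27 and 4.36 on vehicle arrays, 4.12 and 4.33 on TCDD arrays and 4.09 and 4.30 on Cl-BBQ arrays. Lyz2, Cd14 and Adgre1 had means below the floor in every group, at most 3.13, 2.94 and 3.96. Means over the floor were found for 6 of the 11 with vehicle and 3 with each ligand; C1qa (5.07, 5.23 and 5.16), C1qb (4.47, 4.49 and 4.53) and Cd68 were over it in every group. Of the 5 tested markers of this list Cd68, a lysosomal protein also made by other cells, was called with both ligands (0.79 and 0.64; limma, adjusted p of 0.024 and 0.040), calls lost without vehicle replicate 3 (adjusted p of 0.081 and 0.13) and without any 1 of 4 and 6 further arrays. With TCDD the call was also lost with only the groups compared, and with Cl-BBQ without a filter or with a replicate block. The part of Cd68 in the result was not tested. The mean of 8 endothelial and stromal markers lay between 3.81 and 4.03 with vehicle, 3.87 and 4.02 with TCDD and 3.74 and 4.04 with Cl-BBQ. That of 6 natural killer cell markers lay between 3.81 and 4.05, 3.66 and 3.88, and 3.66 and 4.03. None of the tested markers of B cells (4), dendritic cells (2), neutrophils (2), natural killer cells (3), endothelium and stroma (3), erythroid cells and platelets (1) or CD8 T cells (2) was called by limma with either ligand, with 0 to 1 per list at an unadjusted p under 0.05. Some passed with 1 array left out. These were Cxcr2, lower with TCDD (limma, adjusted p down to 0.022), and Klrb1c, lower with Cl-BBQ (0.029). Mmp9 (0.036), Klrd1 (0.045) and Cd79b (0.0499) were higher with Cl-BBQ. Cxcr2, Klrb1c and Mmp9 also passed under other settings. The mean of the 2 CD8 T cell markers lay between 5.28 and 5.55 with vehicle, 5.34 and 6.01 with TCDD, and 5.66 and 6.12 with Cl-BBQ, so that Cl-BBQ arrays lay above vehicle arrays. Its part in the Ifitm values was not tested. For B cell, dendritic cell and neutrophil markers the ranges overlapped between the groups.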

How the data were processed

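The authors deposited log2 expression of 41345 probe sets on 13 arrays, made with RMA per the submitters' processing notes. RMA includes quantile normalization between arrays, so a shift of all transcripts cannot be seen. Array medians were 4.27 to 4.33 and correlations between arrays 0.943 to 0.976. Per the labels, targets were biotin-labelled from oligo-dT primed cDNA. The number of arrays limits the precision.

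The platform annotation gave 1 symbol to 23521 probe sets and several to 1814, and 16010 were unnamed here. Symbols were updated by gene identifier to the GRCm38.p6 table. For each gene the probe set with the highest mean was kept. Genes above the floor on at least 4 arrays entered 1 limma fit (version 3.58.1, R 4.3.3) with 3 group means, two-sided, with Benjamini-Hochberg adjustment within each contrast. An adjusted p under 0.05 was a call. Exact permutation tests used SciPy 1.17.1. The fit was tested on simulated data of 12710 genes with independent noise. At each log2 size of 0.5, 1, 2 and 3, 50 genes were changed equally in both ligand groups. The data gave more calls (853 with TCDD and 1441 with Cl-BBQ), so the simulated rates need not hold for them. There, 16 of 189 calls with TCDD and 11 of 187 with Cl-BBQ were false. Of genes given a log2 change of 0.5, 52% and 56% were recovered, and of those given 1, 94% and 96%.

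The Ifitm genes and all lists were chosen with earlier results of these data known. Beside the Ifitm genes, the text names up to 4 members per list with the smallest adjusted p, members needed to describe a list, 6 fixed genes (1 of them not reported here), cluster neighbours and the genes most correlated with each Ifitm gene. Alternatives covered filters, normalization, the variance model, the groups fitted, a replicate block, all probe sets and leaving out each array.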

Additional observations from a re-analysis of the deposited data

Results flagged for a closer look

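Over 18 groups of values of the 6 measured Ifitm genes, the array farthest from the rest was compared with Dixon's 95% limit, which chance exceeds in about 1 group in 20. Vehicle replicate 4 exceeded it for Ifitm6, at 3.21 against 2.57 to 2.66 on the other vehicle arrays, all below the floor.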

How the results depend on the processing

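Ifitm2 and Ifitm3 kept their direction against vehicle under all alternatives tried, and Ifitm2 kept its calls, with log2 differences of 2.10 to 2.63 with TCDD and 2.13 to 2.65 with Cl-BBQ when single arrays were left out. Ifitm1 kept its call with Cl-BBQ wherever it was tested. The stricter floor left Ifitm1 untested, so that 1 of Ifitm1 and Ifitm2 was called with Cl-BBQ. With TCDD, Ifitm1 (0.53) and hence 2 genes were called when only the groups compared were fitted, and between 1 and 2 genes when single arrays were left out, with log2 differences of Ifitm1 from 0.47 to 0.62. The log2 change of Ifitm2 minus that of Ifitm1 was 1.87 with TCDD (exact permutation p = 0.029) and 1.42 with Cl-BBQ (exact p = 0.016); with TCDD it was 1.53 to 2.06 without single arrays, where the smallest exact p is 0.057. Nothing is read from it, since Ifitm1 was below the floor on all vehicle arrays. Genes called between Cl-BBQ and TCDD numbered 3, and 0 without a filter, with only these groups or with a replicate block, 5 with the stricter floor, 6 after another quantile normalization and 6 with an intensity trend and robust variance. Without single arrays they numbered 0 to 5, with 0 when vehicle replicate 4, any TCDD replicate or Cl-BBQ replicate 2, 3 or 5 was left out. Replicate numbers did not pair the samples (correlations of deviations of same-numbered arrays from -0.06 to 0.08); a replicate block gave 714 called genes with TCDD against 853 and 1114 with Cl-BBQ against 1441. No member had further probe sets naming it alone, and probe sets naming several symbols were left out. Low signal limits Ifitm1, Ifitm6 and Ifitm10, which lay near or below the floor.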
